A study of Daucus carota with 6 samples.

Results

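Plant microRNAs (miRNAs) other than the miR396, miR165, miR166, miR319, miR159, miR170 and miR171 families were followed in shredded carrot (Daucus carota) through 48 h of storage. They were chosen by a rule on their names, which was set with earlier results of these data known. A name was taken when the letters miR stood directly before a family number, as in the nomenclature for plants, and osa-miR1882a was also left out. The rule found 86 of the 469 names in the table, and these belonged to 80 family numbers. Small RNA had been sequenced from commercial carrots that were disinfected in chlorine solution, peeled and shredded, and sampled either at once (T0) or after storage at 20 °C for 24 h (T24) or 48 h (T48), with 2 libraries at each time point. All groups were thus wounded by shredding, T0 included, and no intact carrot was among the libraries. The labels do not say whether the libraries of a time point came from separate batches of carrots, so the spread between them may be technical. The 2 library names of a time point are alike in all but their last part. Whether both came from a single sample is not said. The last parts are L4 and L5 at both T0 and T24 but L1 and L6 at T48. What these parts stand for is not given, so T48 and whatever they mark cannot be told apart.

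A plant miRNA is cut from a hairpin precursor by a Dicer-like enzyme and loaded into an ARGONAUTE protein, which then cleaves or silences mRNAs of near-perfect complementarity. A few families are shared by most seed plants and act on small sets of regulatory genes, while many other names have been described in a single species. Well-known widespread families include miR168, which acts on the ARGONAUTE1 mRNA and so on the silencing machinery itself, miR160, miR167 and miR393 in auxin signalling, miR164, which acts on NAC transcription factors, and miR397, miR398 and miR408 in the response to copper supply. Auxin response and NAC factors shape roots, organ boundaries and the regrowth of wounded tissue in Arabidopsis.

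Each name begins with a species code, and all but 5 of the 86 carry a further prefix in the table that is left out here. The code gives the species of the known miRNA that the carrot sequence was named after. There were 33 codes, with 58 names after flowering plants, 7 after conifers, 6 after a moss or a lycophyte and 8 after algae, and 7 names were not placed. A name is therefore a label and does not show that the gene of that species, or its targets, exist in carrot. The mature sequences of these names were not analysed here.

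The values are given in the unit that the authors called TPM, which here is the share of all miRNA reads of a library scaled to a total of 1000000. All values of a library were whole multiples of 1 step, so the reads behind them could be worked out. The libraries held 64886 to 199911 miRNA reads, the smallest total being that of T48 library 1, and a single read was worth 5.00 to 15.4 TPM. From counting error alone, a name listed at 0 could thus stand at up to 3 reads, which is 15.0 to 46.2 TPM. PCR copies of 1 molecule count as several reads, so this limit and the intervals below cover counting error only. The lowest count above 0 was 2 to 4 reads, depending on the library, so no name was listed at a single read. Whether lower counts were listed as 0 was not tested. Another miRNA, oan-miR-1421ag-5p, made up 54.7% of T24 library 1, 50.6% of T24 library 2 and 46.8% of T48 library 2, and was listed at 0 in the remaining 3 libraries. This lowers the TPM of everything else in the 3 libraries that hold it.

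Few of the plant names were seen more than once. Of the 86, 81 were above 0 in at least 1 library, and the 5 without the prefix (cst-miR11331 to cst-miR11335) were at 0 throughout. A single library held 55 of the 81 (67.9%), while 12 were found in 2 libraries and 7 in 3. Only 1 name was in 4 libraries and 1 in 5, and 5 names were in all 6. Among the 383 other miRNAs detected, the share found in a single library was 70.8% and the share found in all 6 was 3.1%, against 6.2% here. Of the 17 names that belonged to 13 widespread families, 4 were in all 6 libraries, 2 were in 2 and 11 were in 1. Of the 64 detected names outside these families, 44 were in 1 library and 1 was in all 6.

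**Figure D1:**
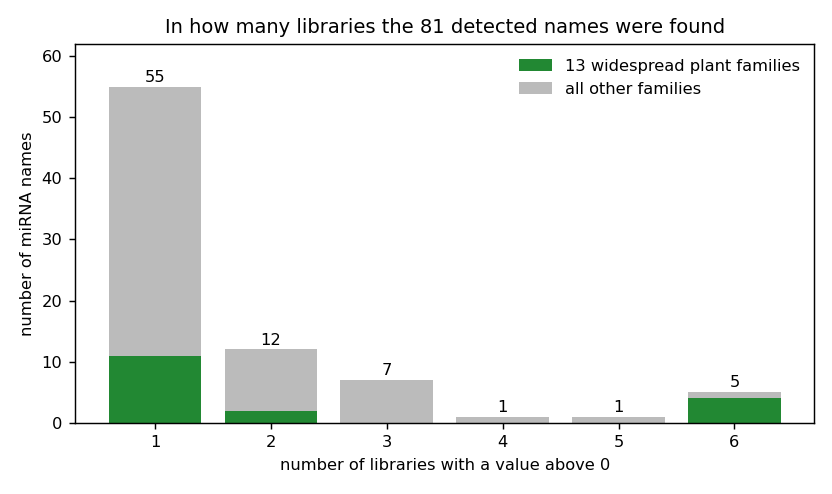
Number of plant-named miRNAs (vertical axis) by the number of libraries in which each was above 0 (horizontal axis), with names of the 13 widespread families in green and all others in grey. Most names, 55 of 81, were found in 1 library, and 5 were found in all 6.

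The number of plant names detected was 49 at T0, 30 at T24 and 33 at T48. Per library, it was 31 and 28 before storage, 20 and 20 after 24 h and 18 and 22 after 48 h, so that both T0 libraries lay above all 4 stored ones. Over all miRNAs the counts were 193 and 135 before storage, 105 and 122 after 24 h and 89 and 93 after 48 h. Both T0 libraries thus lay highest there too, and read depth was not evened between libraries. Over time points, 32 names were found at T0 alone, 14 at T24 alone, 14 at T48 alone and 10 at all 3. A name found at T0 was present in both T0 libraries in 10 of 49 cases (20.4%). The same was true of 10 of 30 names found at T24 (33.3%) and of 7 of 33 found at T48 (21.2%). For the other miRNAs, these shares were 21.2%, 30.8% and 25.7%.

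A value of 0 often stood beside a value that was not small. In 85 cases a plant name was above 0 in one library of a time point and at 0 in the other. In 54 of these (63.5%) the share in the first library would have given at least 10 reads in the second, and the same held for 226 of the 358 such cases (63.1%) among the other miRNAs. The most extreme was cca-miR6109, named after a miRNA of artichoke and cardoon. It had 7767 TPM, or 1202 reads, in T0 library 1 and 0 in the other 5 libraries, although the same share would have given 1356 reads in T0 library 2. This single value made cca-miR6109 the fourth of these names by mean TPM. What set these zeros was not tested.

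Together the 86 names took 2.51% and 1.70% of the miRNA reads before storage, 1.04% and 1.24% after 24 h and 2.26% and 1.08% after 48 h. The mean summed level was 21016 ± 5716 TPM (SD, n = 2) before storage. After 24 h it was 11410 ± 1469 TPM (SD, n = 2), and after 48 h 16684 ± 8314 TPM (SD, n = 2). The 3 low libraries were those that held oan-miR-1421ag-5p. With its reads taken out of the totals, the sums were 25058 and 16974 TPM before storage, 22903 and 25202 TPM after 24 h and 22563 and 20327 TPM after 48 h, and the time points overlapped. The 5 names found in all libraries made up 53.2% to 84.0% of the sum in each library. At T0 these 5 together stood at 13324 and 13331 TPM, and the difference between the T0 libraries lay in the remaining names, with 11734 and 3644 TPM.

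**Figure D2:**
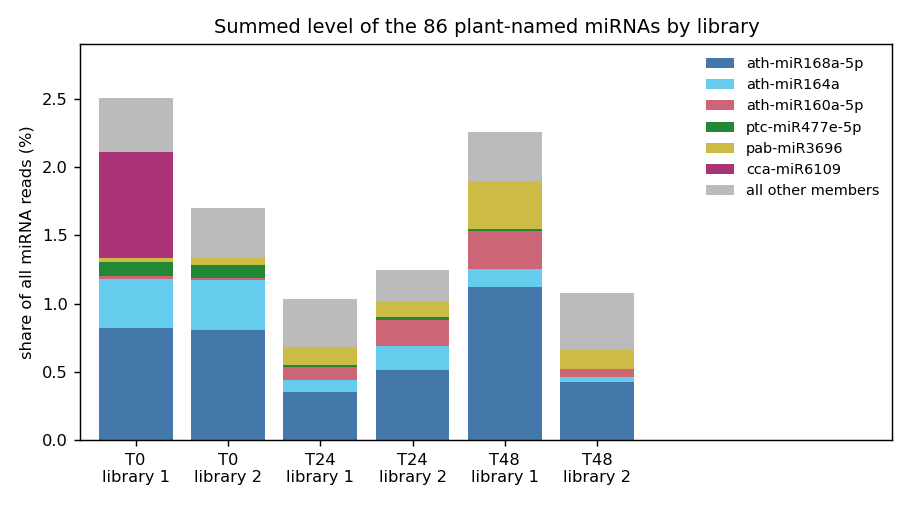
Share of all miRNA reads (%, vertical axis) taken by the 86 plant-named miRNAs in each of the 6 libraries, split by colour into each of the 5 names found in all libraries, cca-miR6109 and the rest. The bars reach 2.51% in T0 library 1, where cca-miR6109 appears and in no other bar, and 1.04% in T24 library 1.

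The 5 names above 0 in every library were ath-miR168a-5p, ath-miR164a, ath-miR160a-5p and ptc-miR477e-5p of widespread families, and pab-miR3696, named after a spruce miRNA. By mean TPM over the 6 libraries they ranked 7, 14, 18, 35 and 15 among all 469 names. In 4 of the 5, both T0 libraries lay outside the range of the 4 stored libraries, as they did for 64.7% of the 17 miRNAs found in all libraries of the series. The miR160 and miR3696 names were lowest at T0, and the miR164 and miR477 names were highest there.

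Among the 5 names found in every library, the widest fold between means was that of ptc-miR477e-5p, called after a poplar miRNA. Its level was 1014 and 951 TPM in the T0 pair, 150 and 179 TPM in the T24 pair and 123 and 30.0 TPM in the T48 pair. The T0 libraries stood far above all stored ones, and the mean of T0 was 5.99 times that of T24 and 12.8 times that of T48. The T48 values rest on 8 and 6 reads, with 95% Wilson intervals of 62.5 to 243 TPM and 13.8 to 65.5 TPM, and the lower limits at T0 were 868 and 817 TPM. The log2 fold change of T48 against T24 was -1.41 and was not called, and the T48 libraries differed more from each other than the time points did.

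The level of ath-miR160a-5p went the other way. In Arabidopsis miR160 acts on the mRNAs of the auxin response factors ARF10, ARF16 and ARF17, which repress auxin-induced genes. It had 200 and 172 TPM before storage, 897 and 1906 TPM after 24 h and 2759 and 590 TPM after 48 h. Every stored library was thus above both T0 libraries, by 7.53 times in the mean at T24 and 9.0 times at T48. The T48 libraries enclosed both T24 values, so the order of T24 and T48 could not be told.

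The miR160 name was the only one of the auxin-related families with reads at more than 1 time point. A miR167 name, aqc-miR167, had 233 TPM (36 reads) in T0 library 1 and was at 0 elsewhere, although this share would have given 40.6 reads in T0 library 2. In Arabidopsis miR167 acts on ARF6 and ARF8, which activate auxin-induced genes. The miR393 family acts on the TIR1/AFB auxin receptors and appeared only as vca-miR393-3p, with 55.0 TPM (11 reads) in T48 library 2. Its name gives the 3p arm of the hairpin, whereas the receptor mRNAs are bound by the 5p arm.

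Among the developmental families, ath-miR164a had 3560 and 3626 TPM in the T0 pair, 897 and 1750 TPM in the T24 pair and 1341 and 345 TPM in the T48 pair. In Arabidopsis miR164 acts on NAC transcription factors, among them the CUC genes that set organ boundaries. Both T0 libraries lay above the 4 stored ones, and the T0 mean was 2.72 times that of T24 and 4.26 times that of T48. A second miR164 name, cme-miR164b, had 38.8 TPM (6 reads) in T0 library 1 alone. The miR156 family, which acts on SPL factors of the juvenile-to-adult change, was seen only as ath-miR156a-5p, with 30.0 TPM (6 reads) in T48 library 2. This name was thus scarce at this depth, which does not show that the family was.

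The most abundant of these names was ath-miR168a-5p, whose family acts on ARGONAUTE1. Its level was 8258 and 8106 TPM before storage, 3557 and 5182 TPM after 24 h and 11220 and 4262 TPM after 48 h. The T24 libraries and T48 library 2 lay below T0, and T48 library 1 lay above it. The 3 low libraries were again those with oan-miR-1421ag-5p. Against T0, the log2 fold change was -0.93 at T24 and -0.24 at T48 and was called at neither. Without T24 library 2 it was -1.20 and was called among miRNAs above 0 in all libraries compared (limma, unadjusted p = 0.00935).

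For pab-miR3696, no role is given here. It had 291 and 475 TPM in the T0 pair, 1369 and 1199 TPM in the T24 pair and 3514 and 1376 TPM in the T48 pair. Every stored library was above both T0 libraries, with means 3.35 times higher at T24 and 6.38 times higher at T48. Both T48 values also lay above both T24 values, although 1376 and 1369 TPM, the nearest of them, are within counting error.

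A further 2 names were above 0 in at least 4 libraries. The level of ppe-miR8129-3p, named after a peach miRNA, was 252 and 332 TPM before storage, 386 and 335 TPM after 24 h and 0 and 165.1 TPM after 48 h. Both T24 libraries lay above T0, the nearest values being 335 and 332 TPM, which is within counting error. For gra-miR8632, named after a cotton miRNA, the values were 0 and 298 TPM in the T0 pair, 606 and 700 TPM in the T24 pair and 0 and 540 TPM in the T48 pair. It was highest in both T24 libraries, while the zeros in T0 library 1 and T48 library 1 stand where 46.1 and 35.1 reads would have been expected from the other library.

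**Figure D3:**
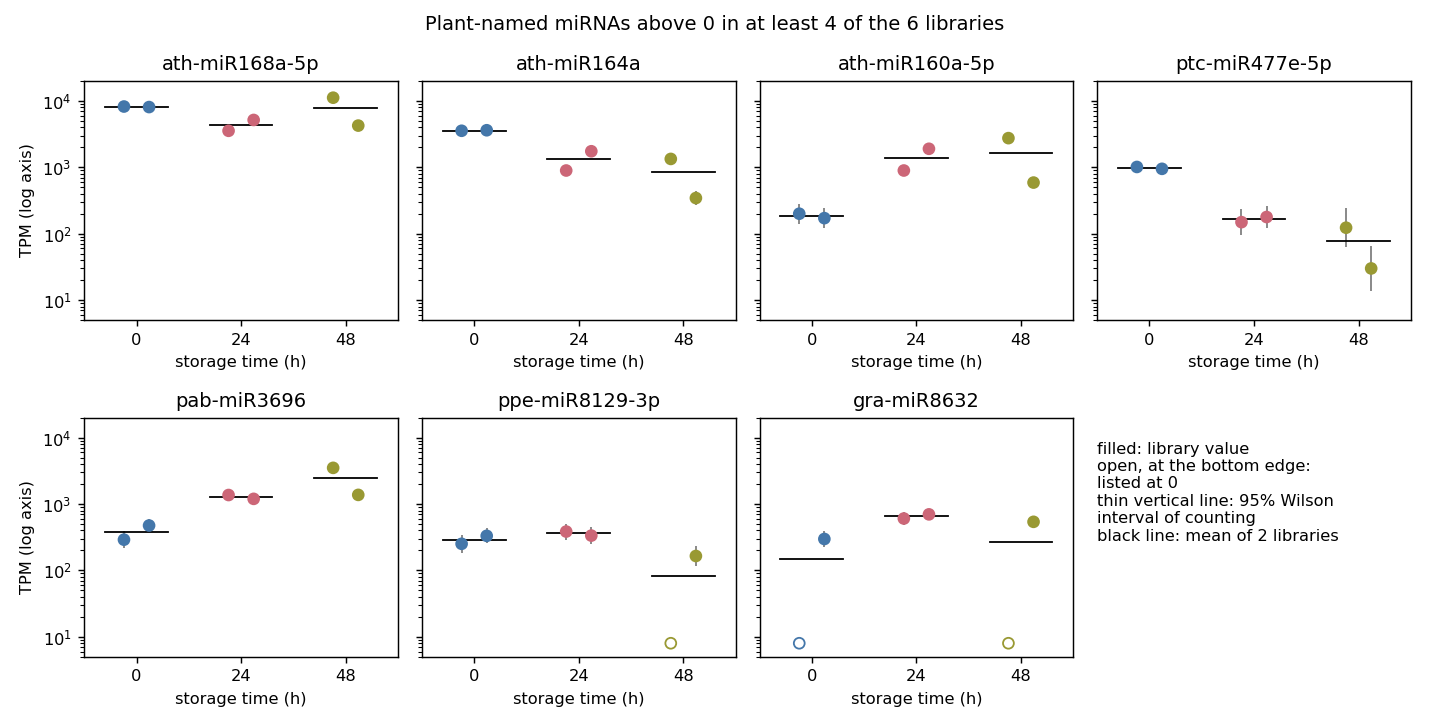
Level in TPM (log axis) of the 7 plant-named miRNAs above 0 in at least 4 libraries, against storage time (h). Each point is 1 library, open points at the bottom edge are listed at 0, thin lines are 95% Wilson intervals and black lines are means of 2 libraries, and ptc-miR477e-5p is at 1014 and 951 TPM before storage and at 123 and 30.0 TPM after 48 h.

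To ask which names changed between time points, limma was fitted on log2(TPM + 1) over the miRNAs detected in any of the 4 libraries compared. Names with an unadjusted p not above 0.05 that also changed 2-fold or more were called. At T24 against T0 this held for 5 of 67 plant names, 1 higher and 4 lower, and 13.2% of all 394 miRNAs tested were called, 5.33% higher and 7.87% lower. For T48 against T0 the calls were 6 of 67, with 2 higher and 4 lower, beside 12.7% of all 369, 4.07% higher and 8.67% lower. For T48 against T24 they were 3 of 49, all lower, beside 10.8% of all 260, 2.69% higher and 8.08% lower. The shares among the plant names, 7.46%, 8.96% and 6.12%, were thus near or below the background. With 1 library left out, 15 to 27, 16 to 22 and 8 to 15 plant names were called. The lone library of a time point is then assumed to vary like the pair it is compared with, so these counts do not bear on the stability of the calls. After Benjamini-Hochberg adjustment over all miRNAs, 1 call was left at T24 against T0 and 0 in the other comparisons, where the lowest adjusted p-values among these names were 0.0859 and 0.179 (limma). Those 2 comparisons had 6 and 3 names at an unadjusted p under 0.05, and voom called 12 and 2 before adjustment. The share of all miRNAs that voom called was not worked out, so its counts have no background here. After adjustment voom still called names at T48 against T0, among them gma-miR5679 (adjusted p = 8.2e-05) and osa-miR1846a-5p (adjusted p = 0.0012). Whether a call was left there thus depended on the fit.

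Every name called had a time point at which both its libraries were listed at 0, so no fold change is given. The call left there after adjustment was ppt-miR11317, named after a moss miRNA. It had 510 and 624 TPM (79 and 109 reads) at T0 and 0 in all 4 stored libraries (limma, adjusted p = 0.0480 at T24). With a replicate block its adjusted p at T24 was 0.493 (limma). The same pattern, above 0 in both T0 libraries and 0 afterwards, was found at lower levels for mtr-miR2661 (84.0 and 109 TPM), mtr-miR5273 (51.7 and 80.2 TPM) and pab-miR482n (58.2 and 57.3 TPM). These 4 names were called lower at both times.

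The names called higher were fewer. At T24, cre-miR1172.2 had 11 and 9 reads and was at 0 in the other 4 libraries, so it was called both against T0 and, as lower, at T48 against T24. At T48, gma-miR5679 had 1264 and 1040 TPM (82 and 208 reads) and was at 0 at T0. At T24 it had 1007 TPM in library 1 and 0 in library 2, where 135 reads would have been expected. The values of osa-miR1846a-5p were likewise 0 in both T0 libraries, 378 and 0 TPM after 24 h and 940 and 290 TPM after 48 h. Another name listed at its precursor, sko-miR-4835-3p, had 407 TPM in T0 library 1. The zero in that library is thus of the name and not of the precursor.

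For gra-miR7494d and ppt-miR1077-5p, called lower at T48 against T24, the T24 libraries held 6 and 5 reads each. These calls rest on counts near the detection limit, and both names also had reads in 1 T0 library, 5 for gra-miR7494d and 17 for ppt-miR1077-5p.

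The fit on log2(TPM + 1) over all miRNAs called none of the 5 names present in every library. For ptc-miR477e-5p it gave a log2 fold change of -2.58 ± 0.84 (standard error) at T24 and -3.99 ± 1.39 at T48 (limma, adjusted p = 0.373 and 0.392). With median-of-ratios scaling it called ath-miR160a-5p at T24 (3.33, limma, adjusted p = 0.285) and ptc-miR477e-5p at T48 (-4.10, adjusted p = 0.227). Some of the 5 were also called with a pseudocount of 10, or when miRNAs had to be above 0 in at least 2 libraries. Voom, also over all miRNAs, called ath-miR160a-5p, ath-miR164a, pab-miR3696 and ptc-miR477e-5p at both times. Their adjusted p-values in voom were 0.0249, 0.0355, 0.0342 and 0.0130 at T24, and 0.0791, 0.0333, 0.0643 and 0.0076 at T48. When only miRNAs above 0 in all 4 libraries of a comparison were tested, a choice made after the values were known, the calls at T24 against T0 were 4 of 6 plant names, 2 in each direction. Of all 23 miRNAs tested in this way 43.5% were called, 17.4% higher and 26.1% lower. At T48 they were 4 of 5, again 2 in each direction, beside 57.9% of 19, 26.3% higher and 31.6% lower. Between T24 and T48, 0 of 5 plant names had an unadjusted p under 0.05 in limma, beside 4.55% of 22 miRNAs called. With the lone T48 library assumed to vary like the T24 pair, ptc-miR477e-5p passed the unadjusted threshold without T48 library 1 (log2 fold change -2.41, limma, adjusted p = 0.260) and pab-miR3696 without T48 library 2 (1.45, adjusted p = 0.113). The median log2 fold change of the plant names was -0.31 at T24 and -0.24 at T48, and that of all miRNAs tested was -0.54 and -0.0024.

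The 4 called names were the same at both times. The fall of ptc-miR477e-5p had a standard error of 0.28 at T24 and 0.66 at T48 in this fit (limma, adjusted p = 0.0033 and 8.4e-06). For ath-miR160a-5p the log2 fold change was 2.81 ± 0.44 at T24 and 2.78 ± 0.66 at T48 (limma, adjusted p = 0.010 and 0.0014). For pab-miR3696 it was 1.78 ± 0.36 and 2.56 ± 0.65 (adjusted p = 0.020 and 0.0021), and for ath-miR164a it was -1.52 ± 0.41 and -2.40 ± 0.65 (adjusted p = 0.034 and 0.0036). At T48 limma gave these names nearly the same standard error, drawn from the spread of all 19 miRNAs, and 2 libraries against 2 allow no exact permutation p below 0.333.

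At T24 the 23 miRNAs had a median log2 fold change of -0.54, and oan-miR-1421ag-5p held reads in both T24 libraries and in neither of T0. Its part in the changes was not tested by itself. With median-of-ratios scaling, which brought this median to -0.02, ath-miR160a-5p stood at 3.33, pab-miR3696 at 2.30 and ptc-miR477e-5p at -2.06, all still called. The change of ath-miR164a became -0.998, with an unadjusted p of 0.0521, and was not called. At T48 all 4 stayed called with this scaling, and at T48 against T24 ath-miR164a (-1.36) and ptc-miR477e-5p (-1.88) were then called, with adjusted p-values of 0.253 and 0.129 (limma). When T0 library 1 or 2 was left out, the lone T0 library was assumed to vary like the stored pair, and none of the 4 names passed the adjusted threshold at T24. The log2 fold change of ath-miR160a-5p was then 2.92 and 2.70 (limma, adjusted p = 0.135 and 0.153) and that of ath-miR164a -1.53 and -1.51 (adjusted p = 0.244 and 0.216), and both also missed the unadjusted threshold. For pab-miR3696 the values were 1.43 and 2.14 (adjusted p = 0.106 and 0.0715), and for ptc-miR477e-5p they were -2.53 and -2.63 (adjusted p = 0.0797 and 0.0715). Without T24 library 1, pab-miR3696 was at 1.69 (adjusted p = 0.0576). At T48 all 4 names passed the unadjusted threshold with each library left out, but without T0 library 1 or 2 only ptc-miR477e-5p passed the adjusted one (adjusted p = 0.0160 and 0.0129). The adjusted p-values of the others were then 0.0871 and 0.0939 for ath-miR160a-5p, 0.148 and 0.116 for ath-miR164a, and 0.148 and 0.0817 for pab-miR3696, the last also missing it without T48 library 1 (adjusted p = 0.0532).

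**Figure D4:**
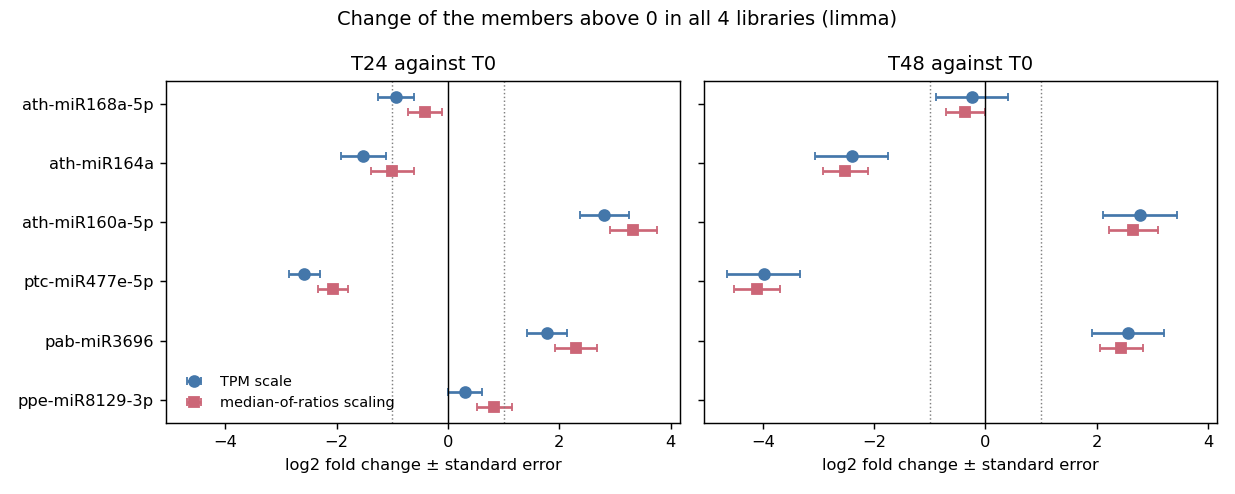
Log2 fold change with its standard error (limma, only miRNAs above 0 in all 4 libraries compared) at T24 and T48 against T0, on the TPM scale (circles) and after median-of-ratios scaling (squares), with dotted lines at a 2-fold change. The values of ath-miR160a-5p and pab-miR3696 lie to the right of 0 and those of ptc-miR477e-5p and ath-miR164a to the left in both panels and on both scales.

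Ratios within a library do not depend on its total. Per 100 reads of ath-miR168a-5p, ath-miR164a had 43.1 and 44.7 reads before storage, 25.2 and 33.8 after 24 h, and 11.95 and 8.10 after 48 h, with no overlap between time points. The ratio of ptc-miR477e-5p was 12.3 and 11.7 before storage, 4.20 and 3.45 after 24 h, and 1.10 and 0.704 after 48 h, also with no overlap. How many of the 17 miRNAs found in all libraries separate in this ratio was not worked out. In TPM, 64.7% of them had both T0 libraries outside the range of the stored ones. That of ath-miR160a-5p was 2.43 and 2.12 before storage, 25.2 and 36.8 after 24 h, and 24.6 and 13.8 after 48 h, so that both stored time points stood above T0. The nearest T24 and T48 values, 25.2 and 24.6, are within counting error. For pab-miR3696 it was 3.52 and 5.87, 38.5 and 23.1, and 31.3 and 32.3. For all 4 names the T48 libraries lay closer together in this ratio than in TPM. The reads of ath-miR160a-5p for each read of ath-miR164a were 0.0563 and 0.0474 before storage, 1.00 and 1.09 after 24 h, and 2.06 and 1.71 after 48 h. The order of the 2 names was thus turned in storage, from far fewer miR160 than miR164 reads to at least as many.

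**Figure D5:**
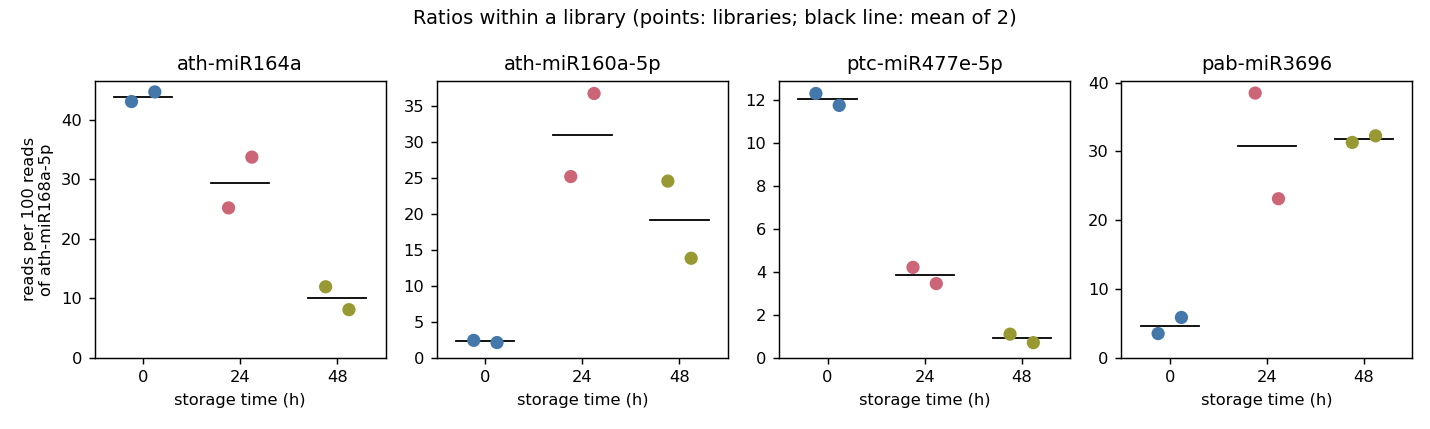
Reads of 4 plant-named miRNAs per 100 reads of ath-miR168a-5p in the same library, against storage time (h), with points for libraries and black lines for means of 2. The ratio of ptc-miR477e-5p goes from 12.3 and 11.7 at T0 to 1.10 and 0.704 at T48, and that of ath-miR160a-5p from 2.43 and 2.12 to 25.2 and 36.8 at T24.

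The names of the remaining widespread families were scarce and unsteady. Each copper-related name was found in 1 library. Both miR398 names, whose family acts on copper/zinc superoxide dismutases, were in T0 library 1 only, ath-miR398a-3p with 71.1 TPM (11 reads) and stu-miR398b-3p with 64.6 TPM (10 reads). The laccase-related ptc-miR408-5p had 178 TPM (31 reads) in T0 library 2 and sbi-miR397-3p 20.0 TPM (4 reads) in T48 library 2, both named after the arm opposite to the one that binds the laccase mRNAs. Of the nutrient-related families, osa-miR395u of sulfate assimilation had 110 TPM (17 reads) in T0 library 1. In phosphate supply, ath-miR827 had 31.5 TPM (4 reads) in T24 library 1 and bdi-miR827-5p 45.0 TPM (9 reads) in T48 library 2. The phosphate role is that of the family and was not checked for the 5p arm in the latter name.

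The miR482 family acts on mRNAs of NBS-LRR disease-resistance proteins. It was the only one of these families whose names had reads at T0 and in stored carrots. The name pab-miR482n was confined to the 2 T0 libraries, with 9 and 10 reads, and pab-miR482j had 8 reads in T24 library 1 and 11 in T48 library 2. A Brassica miRNA of the same kind of targets, bra-miR1885b, had 4 reads in T48 library 1. The 2 names are of 1 family, and how reads matching both were counted is not known, so each is uncertain.

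Of the names outside the widespread families, cre-miR909.2, after a green alga, had 472 TPM in T0 library 1 and 1025 TPM in T48 library 2, and aof-miR12163, after asparagus, had 678 and 255 TPM in the same libraries. Both were at 0 in the other 4, where for cre-miR909.2 82.3 reads would have been expected in T0 library 2. The remaining 50 detected names, bra-miR1885b among them, included 43 found in 1 library, 21 of them at T0, 12 at T24 and 10 at T48, with 3 to 56 reads each. The highest value among the 50 was 478 TPM, in ppt-miR1069-5p in T48 library 1.

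The study's supplementary list puts some of these names at a precursor that also carries another name, in 7 cases. For osa-miR1846a-5p the other name is sko-miR-4835-3p, which had 407 TPM in T0 library 1, where osa-miR1846a-5p was at 0. For gra-miR8784, with 253 TPM in T24 library 2 alone, the other name is mir-45, with 439 and 212 TPM at T0 and 0 in the stored libraries. For gma-miR5030b, with 229 TPM in T0 library 2 and 300 TPM in T48 library 2, the other names are hsa-miR-6731-3p, with 123 TPM in T0 library 1, and mir-44, with 478 TPM in T48 library 1. In all 7 cases, no library held reads under more than 1 of the names of a precursor. How the names were given within a precursor was not tested.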

How the data were processed

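Small RNA of shredded carrot was sequenced in 6 libraries, 2 per time point. Per the methods, adaptors were removed with cutadapt, and reads below 18 nucleotides (cutadapt) or a mean quality of 20 (fqtrim) were dropped. Bowtie2 and miRDeep2 placed the others on miRBase 22 with at most 1 mismatch, and a read could map to 200 places, so related names may share reads. The deposited values, named TPM by the authors, are RPM, reads scaled to a total of 1000000, since no length enters. No coordinates were used. Columns were matched to samples by library name, and 0 were left unused.

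Reads were recovered as whole multiples of 1 step per library (tolerance 0.001 reads) and served for depth, ratios, Wilson intervals and voom. The paper's test was DESeq2. Because the deposited table holds shares, limma 3.58.1 in R 4.3.3 was the main test, on log2(TPM + 1). It was fitted on the 4 libraries of each comparison and over all miRNAs. It was checked on simulated libraries whose zeros came from count sampling only, so zeros beside large values were not covered. Described with values are names above 0 in at least 4 libraries, names called, names of 13 widespread families and the next 3 by mean TPM. Members and lists were chosen with earlier results of these data known. Restricting the test to miRNAs above 0 in all 4 libraries, and voom, were added after seeing the data. Python 3.11.15 with pandas 2.3.3 and matplotlib 3.10.9 was used for the rest.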

Additional observations from a re-analysis of the deposited data

How the results depend on the processing

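The 5, 6 and 3 names called at T24 against T0, T48 against T0 and T48 against T24 became 9 at T24 when miRNAs had to be above 0 in at least 2 libraries, 9 at T24 and 12 at T48 with voom on the reads, 1 at T48 against T24 with a pseudocount of 10, 1, 0 and 0 with an adjusted p of at most 0.05, and 0 at T48 against T24 among miRNAs above 0 in all 4 libraries. With 1 library left out they ranged from 15 to 27, 16 to 22 and 8 to 15. Among miRNAs above 0 in all 4 libraries, the 4, 4 and 0 calls ranged from 2 to 5, stayed at 4, and ranged from 0 to 1 with 1 library left out, and 2 names were called at T48 against T24 with median-of-ratios scaling, ath-miR164a and ptc-miR477e-5p.

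With a replicate block, the calls were 1, 3 and 0 over all miRNAs, and 4, 4 and 0 among miRNAs above 0 in all 4 libraries. Background shares were worked out for the main fit and its restriction to miRNAs above 0 in all 4 libraries. Counts of calls in the other settings have no such background. With the block ppt-miR11317 at T24 against T0 had an adjusted p of 0.493 in limma, against 0.0480 without it and 0.000239 with voom. The library names share parts (L4, L5) between T0 and T24 that the labels do not explain, and none with T48. Same-numbered libraries did not deviate together (r = -0.09, -0.22 and -0.28 over the 17 miRNAs in all libraries), so the numbers were not taken to pair them.

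Names detected at T0, T24 and T48 fell from 49, 30 and 33 to 10, 10 and 7 when both libraries had to be above 0, and ranged from 28 to 31, 20 to 20 and 18 to 22 with 1 library left out. The summed level became 24052 TPM at T24 with totals without oan-miR-1421ag-5p, and 13349 and 7306 TPM at T0 and T24 for widespread families alone.

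Directions of single names turned only with a library left out. At T48 against T24, where none of these 3 names was called over all miRNAs, the log2 fold change ranged from -1.15 to 1.08 for ath-miR160a-5p, -1.86 to 0.10 for ath-miR164a and -0.011 to 1.39 for ath-miR168a-5p. At T48 against T0 it ranged from -0.94 to 0.46 for ath-miR168a-5p and -4.11 to 4.97 for gra-miR8632, and at T24 against T0 from -1.20 to 5.42 for ppt-miR1077-5p, the last 2 resting on zeros. From counting error alone, a name listed at 0 could still stand at up to 3 reads. In 54 of the 85 cases of a zero beside a value above 0, at least 10 reads would have been expected.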
